A study of Mus musculus with 12 samples.

Results

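A group of 9 genes that mark the cells of the brain and spinal cord was followed through 12 subcutaneous TC2Ras tumors. Of 55401 genes in the count table, the 9 are the rows whose Ensembl identifiers map to Mbp, Mog, Mag, Mobp, Cnp, Gfap, Aldoc, Aqp4 and Slc1a2. They were chosen by their measured levels, because Mbp, Aldoc and Gfap had been seen to be higher in tumors of the A300 group, so the comparison of A300 with Control is given here as a description and without a test. All 9 passed the filter on low counts, which kept 20818 genes.

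TC2Ras is a mouse prostate cancer cell line, and each mouse received 125000 of its cells under the skin of the flanks. The study asked how adipose-derived stromal cells (ASC) and inorganic arsenic (iAs) act on such tumors. Control tumors, labelled Control1, grew from TC2Ras cells alone in mice that drank water with 0 ppb iAs. A300 tumors grew from TC2Ras cells alone in mice given 300 ppb iAs. ASC tumors grew from TC2Ras cells mixed with 1% ASC-GFP cells, at 0 ppb iAs, and ASC300 tumors from the same mixture at 300 ppb iAs. All mice had been kept on low-arsenic chow and purified water before implantation, and tumors of all groups were collected on day 21. There were 3 libraries of poly(A) RNA per group, each from the tumors of both flanks of 1 mouse, so the tumors within a group came from separate animals. The ASC-GFP cells were primary cells from mice with a GFP transgene under the ubiquitin C promoter. Strain, sex and age of the host mice are not given in the sources used here.

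In the central nervous system, oligodendrocytes wrap axons in myelin, a stack of membrane held together by myelin basic protein and related proteins. Astrocytes take up glutamate, move water and potassium, and are recognised by the intermediate filament protein GFAP. Outside the central nervous system the myelin is made by Schwann cells, which share Mbp, Mag and Cnp with oligodendrocytes but make little Mog or Mobp. Neither oligodendrocytes nor astrocytes are resident in skin or prostate.

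All libraries carry the label of adipose-derived stromal cells as their cell type, although the RNA came from whole tumors. Total counts ran from 39157647 to 55168642 per tumor. The fibroblast collagen Col1a1 had group means of 1551 to 2241 CPM (counts scaled to TMM library sizes). The luminal keratin Krt8 had 1152 to 16302 counts per tumor and the epithelial adhesion gene Epcam 7 to 65, while probasin (Pbsn), a marker of differentiated mouse prostate, was at 0 in all 12 tumors. The highest Krt8 and Epcam counts were in Control replicate 1, which also had 954 counts of the keratin Krt18, against 15 to 79 elsewhere. One library, Control replicate 1, stood apart for the genes described here. In it 77 genes were at 0 that had at least 12 counts in each of the other 11 tumors, against 1 to 10 such genes in any other library, and Mobp and Gfap were among the 77. Values that rest on this library are therefore also given without it.

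The stretches just upstream of 4 of the genes are shown, whose proteins belong to different cells. Each had its highest level in an A300 tumor and its lowest in Control replicate 1, as had all of the 9 genes but Cnp. Mobp and Mag are myelin genes, and Gfap and Aldoc are astrocyte genes. The sequences are the 250 bases before the outermost annotated start, from RefSeq on build GRCm38.p6, on the strand of the gene. An entry at any start existed for 7 of the 9 genes. Those of Cnp and Slc1a2 were not at the outermost start, and that of Mog is not printed. Mobp lies at chr9:120149492-120149741 (plus strand), Mag at chr7:30914923-30915172 (minus strand), Gfap at chr11:102897201-102897450 (minus strand) and Aldoc at chr11:78322823-78323072 (plus strand). Capitals mark matches, on either strand, to a SOX-type motif (ACAANG) or a STAT-type motif (TTCNNNGAA).
Mobp: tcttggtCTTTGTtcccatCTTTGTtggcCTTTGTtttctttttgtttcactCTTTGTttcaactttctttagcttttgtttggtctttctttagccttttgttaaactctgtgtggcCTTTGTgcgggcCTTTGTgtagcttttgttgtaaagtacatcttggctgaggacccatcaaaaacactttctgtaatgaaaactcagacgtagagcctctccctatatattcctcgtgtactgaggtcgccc
Mag: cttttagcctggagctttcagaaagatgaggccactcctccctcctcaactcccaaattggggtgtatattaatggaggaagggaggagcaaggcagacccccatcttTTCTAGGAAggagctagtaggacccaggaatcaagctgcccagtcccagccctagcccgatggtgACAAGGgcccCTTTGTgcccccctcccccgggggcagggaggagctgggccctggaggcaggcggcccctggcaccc
Gfap: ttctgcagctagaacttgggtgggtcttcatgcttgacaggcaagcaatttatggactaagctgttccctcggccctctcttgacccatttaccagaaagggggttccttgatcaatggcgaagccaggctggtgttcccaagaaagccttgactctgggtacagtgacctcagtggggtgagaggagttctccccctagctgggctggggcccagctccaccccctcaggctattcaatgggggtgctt
Aldoc: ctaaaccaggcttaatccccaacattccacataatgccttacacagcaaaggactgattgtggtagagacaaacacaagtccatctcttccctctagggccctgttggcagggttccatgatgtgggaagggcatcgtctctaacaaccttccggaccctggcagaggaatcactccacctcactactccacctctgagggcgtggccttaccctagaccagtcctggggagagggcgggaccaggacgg
The Mobp window held 6 matches to the SOX-type motif, all of them written CTTTGT on the strand shown. Of 32851 RefSeq promoter windows of this length 36.3% held at least 1 such match, and 0.0152% held 6 or more. The Mag window held 2 SOX-type matches and 1 STAT-type match, a motif found in 7.02% of windows. The Gfap and Aldoc windows held neither, and no hypoxia-type motif (ACGTG), which 16.6% of windows contain. RefSeq gives Aldoc a second start further into the gene, whose window, not printed, held 2 STAT-type matches. A match of letters is a description and no evidence of binding.

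Mbp, the structural protein that compacts the myelin sheath, was the most abundant gene of the myelin group beside Cnp. It had 2028, 1987 and 2061 counts in A300 replicates 1 to 3, 1027, 995 and 1130 in ASC300, 1018, 877 and 916 in ASC, and 654, 1193 and 843 in Control. The lowest A300 tumor was above the highest of the 9 others, and the other groups overlapped. The mean level was 42.6 ± 7.37 CPM in A300, 21.8 ± 1.503 in ASC, 20.4 ± 1.74 in ASC300 and 18.2 ± 4.69 in Control (mean ± SD, n = 3 tumors in each group here and throughout). The Mbp locus also yields Golli transcripts, which immune cells make, and counts per gene do not separate them from the myelin forms.

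Mobp, a small basic protein of central nervous system myelin, had the widest gap between A300 and the remaining tumors. Its counts were 672, 577 and 580 in A300, 203, 261 and 204 in ASC300, and 237, 195 and 239 in ASC. In Control they were 0, 210 and 199. The level was thus close to 200 counts in 8 of the 9 tumors outside A300 and nil in Control replicate 1. In CPM, A300 had a mean of 12.9 ± 3.43, ASC 5.20 ± 0.387, ASC300 4.32 ± 0.732 and Control 2.78 ± 2.41.

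Mog and Mag code for proteins of the myelin surface, Mog on the outermost layer of central myelin and Mag on the layer that faces the axon. Mog was near the detection floor, which was set at 12 counts, with 50, 38 and 40 counts in A300, 10, 41 and 16 in ASC300, 9, 24 and 24 in ASC, and 0, 29 and 29 in Control. The ranges of A300 and ASC300 overlapped in counts. Mag had 128, 133 and 221 counts in A300, 122, 143 and 104 in ASC300, 113, 80 and 95 in ASC, and 28, 70 and 90 in Control. Its Control tumors lay below every ASC and ASC300 tumor in CPM (1.29 ± 0.688 against 2.22 ± 0.0719 and 2.38 ± 0.396), and A300 was highest with a mean of 3.27 ± 0.595.

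Cnp, an enzyme of the cytoplasmic myelin channels that other cell types make too, did not share this pattern. It had 1626, 2052 and 2256 counts in A300, 2090, 2124 and 1892 in ASC300, 2062, 1425 and 1759 in ASC, and 1837, 1833 and 1429 in Control. Mean levels were 40.8 ± 1.07 CPM in A300, 40.3 ± 1.88 in ASC, 39.4 ± 2.31 in ASC300 and 34.7 ± 3.50 in Control. Control replicate 1, where 4 of the other genes were at 0, had 38.0 CPM of Cnp and was the highest of the Control tumors.

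Gfap, the intermediate filament of astrocytes, had 157, 142 and 264 counts in A300 and 75, 87 and 94 in ASC300. It had 45, 121 and 102 counts in ASC and 0, 55 and 26 in Control. The groups formed the order A300, ASC, ASC300 and Control by mean (3.83 ± 0.883, 2.18 ± 1.18, 1.66 ± 0.238 and 0.540 ± 0.528 CPM). ASC replicate 2, at 3.24 CPM, lay inside the range of A300, and ASC replicate 1, at 0.911 CPM, inside that of Control, so that only ASC300 and A300 stood clear of Control.

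Aldoc is the aldolase of brain, an enzyme of glycolysis that is abundant in astrocytes. It had 601, 584 and 1020 counts in A300, 604, 504 and 517 in ASC300, 516, 291 and 434 in ASC, and 254, 432 and 312 in Control. Scaled for depth, the A300 tumors (11.9 to 18.0 CPM) lay above all others, of which the highest was ASC300 replicate 1 at 11.2 CPM. The means were 15.0 ± 3.03 in A300, 10.5 ± 0.678 in ASC300, 9.45 ± 1.44 in ASC and 6.77 ± 1.52 in Control. Every A300 and ASC300 tumor was above the Control range, while ASC replicate 2, at 7.80 CPM, fell inside it.

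Aqp4, the water channel of astrocyte end-feet, was low throughout, with 64, 70 and 79 counts in A300, 10, 52 and 33 in ASC300, 31, 28 and 29 in ASC, and 0, 40 and 29 in Control. Slc1a2, the main glutamate transporter of astrocytes, had 738, 884 and 516 counts in A300, 304, 361 and 238 in ASC300, 244, 308 and 235 in ASC, and 54, 254 and 266 in Control. For both genes every A300 tumor was above the 9 others, and Control replicate 1 was the lowest of all. Mean Slc1a2 was 15.2 ± 5.29 CPM in A300, 6.22 ± 1.78 in ASC, 5.83 ± 1.22 in ASC300 and 3.92 ± 2.47 in Control, and mean Aqp4 was 1.48 ± 0.110, 0.685 ± 0.0618, 0.622 ± 0.421 and 0.466 ± 0.409 CPM in the same order. In bulk RNA, fewer cells of a type and less RNA per cell cannot be told apart.

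**Figure D1:**
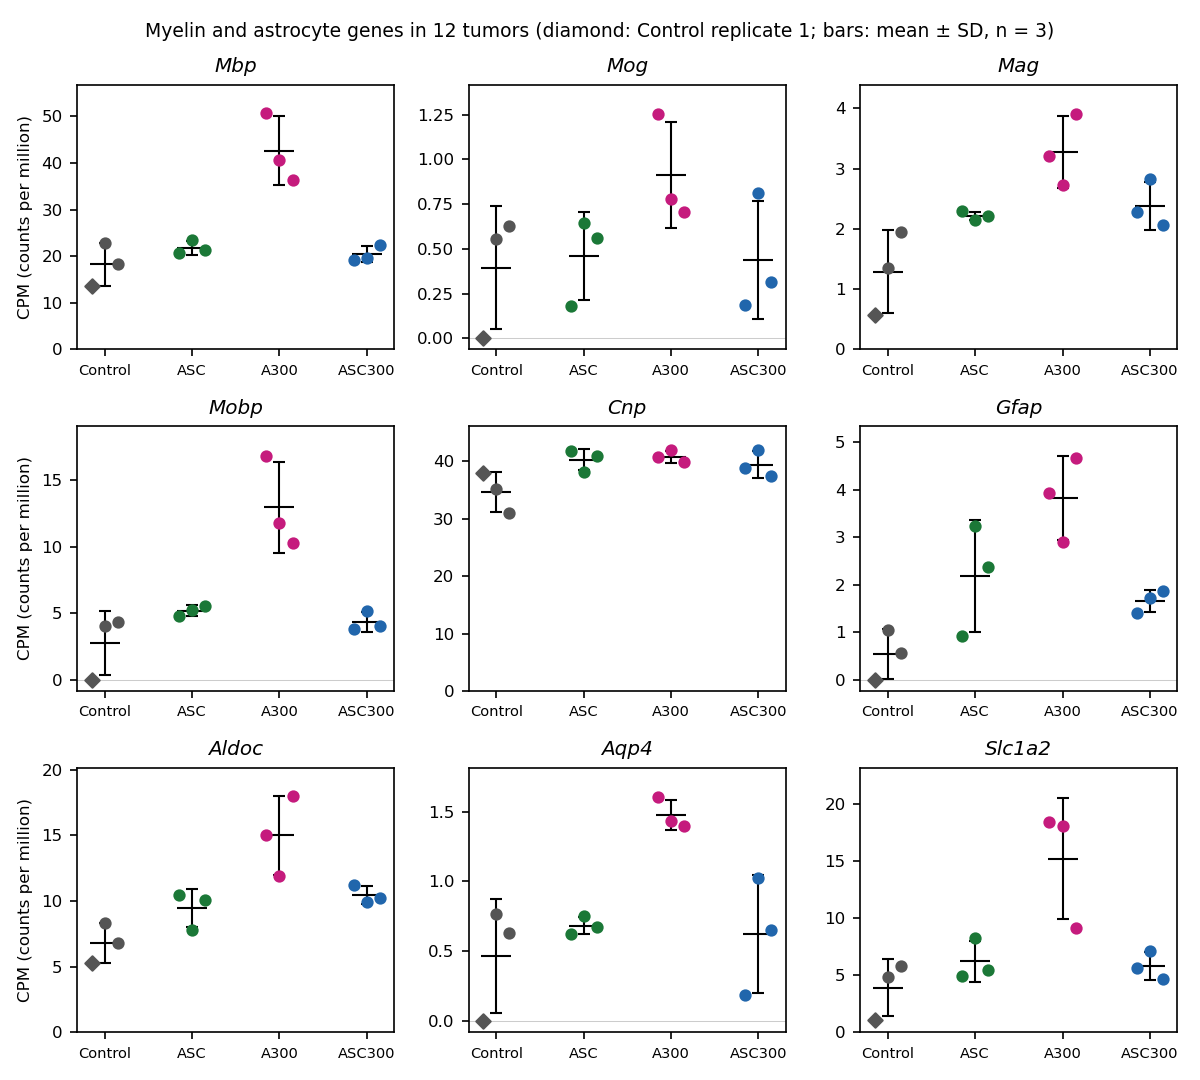
Level of each of the 9 genes in CPM (vertical axes, each from 0) in the 3 tumors of each group, with points for tumors, a diamond for Control replicate 1, and bars for the mean ± SD (n = 3). The A300 points sit above those of every other group for Mbp, Mobp, Aldoc, Aqp4 and Slc1a2, the Cnp points of all groups lie between 31.0 and 42.0 CPM, and the diamond is at 0 for Mog, Mobp, Gfap and Aqp4.

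Per kilobase of exon the order of the genes in A300 was Cnp (11.2 CPM per kilobase), Mbp (5.03), Aldoc (4.60), Mobp (1.89), Slc1a2 (1.16), Gfap (0.908), Mag (0.804), Mog (0.535) and Aqp4 (0.237). In Control it was Cnp (9.54), Mbp (2.15), Aldoc (2.07), Mobp (0.406), Mag (0.317), Slc1a2 (0.299), Mog (0.232), Gfap (0.128) and Aqp4 (0.0747). Cnp, Mbp and Aldoc thus led in both groups, and Aqp4 was lowest in both.

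All 9 genes had their 3 A300 tumors above their 3 Control tumors in CPM, which was also true of 14.5% of the 20818 genes tested (3022). That comparison chose the genes, so nothing is read from the count. The log2 fold changes, given as sizes only, were 2.82 for Gfap, 2.22 for Mobp, 1.96 for Slc1a2, 1.66 for Aqp4, 1.34 for Mag, 1.22 for Mbp, 1.20 for Mog, 1.15 for Aldoc and 0.23 for Cnp. Without Control replicate 1 they were smaller for 8 genes, at 2.25 for Gfap, 1.65 for Mobp, 1.53 for Slc1a2, 1.09 for Aqp4, 1.07 for Mbp, 1.01 for Mag, 1.01 for Aldoc and 0.63 for Mog, and larger for Cnp at 0.32. The values of Mog and Aqp4 moved by over 1.5 times with that library. All 9 remained higher in every A300 tumor than in the other 2 Control tumors, against 19.6% of genes.

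Measured against all 9 other tumors rather than Control alone, 5 of the 9 genes (Mbp, Mobp, Aldoc, Aqp4 and Slc1a2) had every A300 tumor on top, beside 2.08% of all genes tested (433). This too uses the A300 tumors that chose the genes. For a size that does not rest on Control replicate 1, the A300 mean was set against the mean of the 8 tumors outside A300 other than that library, a set picked after the values were seen. The ratio of levels was 2.81 for Mobp, 2.60 for Slc1a2, 2.34 for Gfap, 2.22 for Aqp4, 2.03 for Mbp, 1.88 for Mog, 1.60 for Aldoc, 1.53 for Mag and 1.07 for Cnp. Among those 8 tumors, which came from 3 groups, Mbp varied little, with a coefficient of variation of 8.95%, as did Cnp (9.73%), Mobp (14.4%) and Aldoc (16.5%). The spread was widest for Gfap (52.8%) and Mog (47.5%), the latter at 9 to 41 counts.

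Control replicate 1 was the lowest of the 12 tumors for 8 of the 9 genes (88.9%), all but Cnp, where 10% of all genes tested had their lowest value in that library. Relative to the mean of the same 8 tumors it held 64.5% of the level for Mbp, 56.1% for Aldoc, 27.1% for Mag and 19.1% for Slc1a2. Mog, Mobp, Gfap and Aqp4 had no count in it, which at the floor used here allows up to 12 counts. Reads had no molecular identifiers, so this limit speaks to counting error alone. At 47068947 counts its depth was within the range of the other libraries. Mobp, Slc1a2, Gfap and Aqp4, with the highest ratios in A300, were at 0 or 19.1% in this library, while Cnp was at 99.5% there and had the smallest ratio in A300. Between them the order did not hold, since Mbp was at 64.5% with a ratio of 2.03, Mag at 27.1% with 1.53 and Mog at 0 with 1.88.

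**Figure D2:**
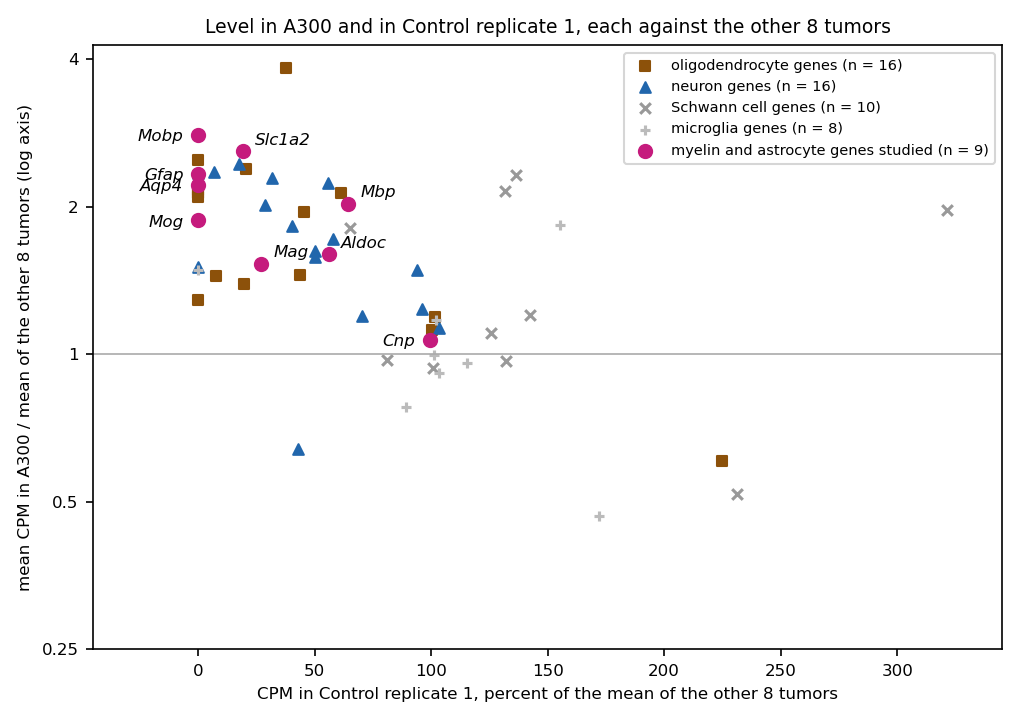
Each point is 1 gene, with its level in Control replicate 1 as a percent of the mean of the other 8 tumors (horizontal axis) and the ratio of its A300 mean to the same mean (vertical log axis). The 9 genes studied run from Mobp at 0% and a ratio of 2.81 to Cnp at 99.5% and a ratio of 1.07, oligodendrocyte (n = 16) and neuron (n = 16) genes are mostly at the upper left, and Schwann cell (n = 10) and microglia (n = 8) genes are mostly on the right.

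Whether iAs moved these genes in tumors that held ASC was asked by comparing ASC300 with ASC, which shares no tumor with the choice of the genes. No gene was called. By edgeR's quasi-likelihood test, which here needed 1.5-fold besides an adjusted p-value under 0.05, 0 of 9 genes passed, beside 0% of the 20818 tested. At an unadjusted p-value under 0.05 there were 307 genes higher and 362 lower, none of them among the 9, and DESeq2 called 10 genes, again none of the 9. The adjusted p-value from edgeR was 1 for each of the 9.

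The precise genes were those with many counts. The log2 difference (ASC300 minus ASC) was -0.03 for Cnp (95% confidence interval -0.23 to 0.16), -0.10 for Mbp (-0.48 to 0.28) and 0.15 for Aldoc (-0.29 to 0.58). Mag was at 0.11 (-0.68 to 0.89), Slc1a2 at -0.09 (-1.10 to 0.92), Mobp at -0.27 (-2.10 to 1.56) and Gfap at -0.39 (-2.13 to 1.35). Aqp4 was at -0.14 (-2.06 to 1.78) and Mog at -0.07 (-2.16 to 2.02). For Mobp, Gfap, Aqp4 and Mog the interval reached past a log2 difference of 1 in both directions. The fit used all tumors, including Control replicate 1, where these genes had no count. Mobp varied little in the tumors compared (203 to 261 counts in ASC300, 195 to 239 in ASC). With only the 6 tumors compared, the SE was 0.215 for Mobp and 0.442 for Gfap, against 0.843 and 0.800 in the main fit. It was 0.599 for Aqp4 and 0.723 for Mog, against 0.886 and 0.965. The SE fell for every gene but Cnp (0.094 against 0.089), and the cause was not tested. The difference between the iAs comparisons with and without ASC was not tested, since A300 chose the genes.

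The effect of adding ASC at 0 ppb iAs was read from ASC against Control, which shares its Control tumors with the comparison that chose the genes. The edgeR test called 150 genes (147 higher, 3 lower, 0.721% of those tested) and 0 of the 9. Gfap had the largest log2 difference, 1.998 (SE 0.84, adjusted p = 0.284), and Cnp the smallest SE, at 0.22 (SE 0.09, adjusted p = 0.273). Aldoc was at 0.48 (SE 0.20, adjusted p = 0.283) and Mag at 0.78 (SE 0.37, adjusted p = 0.335). Mobp, Slc1a2, Aqp4, Mbp and Mog were at 0.90, 0.67, 0.55, 0.26 and 0.21, with adjusted p-values from edgeR of 0.522 to 0.947. Unadjusted p-values were under 0.05 for Cnp (0.0317), Aldoc (0.0342) and Gfap (0.0349) in the edgeR fit. For 3 genes (Mag, Mobp and Cnp) every ASC tumor was above every Control tumor, as was the case for 9.94% of all genes. Without Control replicate 1 the log2 differences of Gfap, Mag, Mobp, Aldoc, Cnp, Slc1a2 and Mbp were 1.43, 0.44, 0.33, 0.34, 0.29, 0.23 and 0.092, and those of Mog (-0.36) and Aqp4 (-0.022) changed sign.

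Tumors with both ASC and iAs were likewise set against Control, with the same Control tumors. Here edgeR called 168 genes (163 higher, 5 lower, 0.807%) and 0 of the 9. Aldoc came nearest, at a log2 difference of 0.63 (SE 0.20, adjusted p = 0.186 with edgeR), and DESeq2 called it at 0.62 (adjusted p = 0.0475). Gfap was at 1.61 (SE 0.84, adjusted p = 0.390) and Mag at 0.88 (SE 0.37, adjusted p = 0.285) in the edgeR fit. Mobp, Slc1a2, Aqp4, Cnp, Mbp and Mog were at 0.63, 0.57, 0.41, 0.18, 0.16 and 0.14. Mag, Gfap and Aldoc had every ASC300 tumor above every Control tumor, as did 13.5% of all genes. Without Control replicate 1 Aldoc was at 0.48, Gfap at 1.03, Mag at 0.54, Cnp at 0.26, Slc1a2 at 0.14 and Mobp at 0.055. The sign turned for Mog (-0.43), Aqp4 (-0.16) and Mbp (-0.012).

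**Figure D3:**
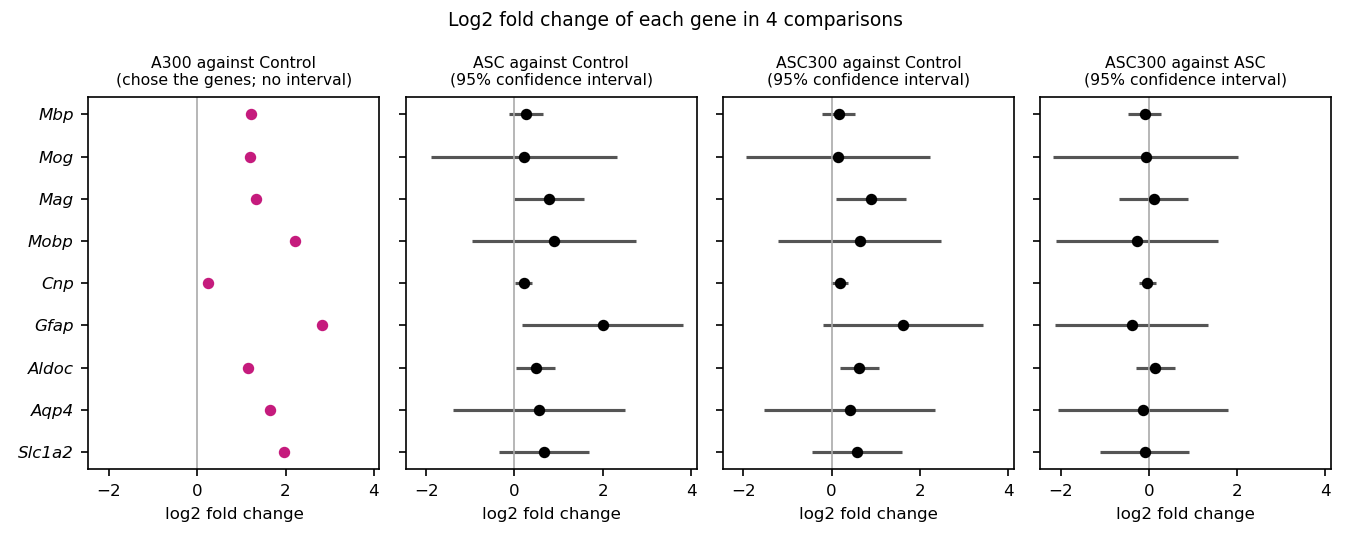
Log2 fold change of each gene (horizontal axes) in 4 comparisons, with points for the fitted value and lines for the 95% confidence interval from the edgeR fit, which is left out for A300 against Control because that comparison chose the genes. All 9 points lie right of 0 in A300, from 0.23 for Cnp to 2.82 for Gfap, and in ASC300 against ASC every interval crosses 0.

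Further markers of the same cells were read from lists, which were chosen with earlier results of these data known. Here and for the lists below, A300 against Control uses the tumors that chose the 9 genes. These counts and medians are therefore descriptions and no independent check. Of 16 other oligodendrocyte genes that passed the filter, 9 had A300 above Control without overlap, beside 14.5% of all genes, and the median log2 difference of the list was 1.15, where that of all genes was -0.03. Mal, a myelin lipid raft protein, had a mean of 3.40 CPM in A300, 1.51 in ASC, 1.32 in ASC300 and 1.05 in Control. Myrf, a transcription factor needed for myelination that epithelia also make, and Tspan2 differed little, at 3.64 and 2.81 CPM in A300 and 3.09 and 2.50 in Control. Nkx2-2, a transcription factor of the oligodendrocyte lineage, was at 0 in all 12 tumors. The summed level of the list was 36.4 to 48.8 CPM in A300, 28.2 to 31.8 in ASC, 23.4 to 26.1 in ASC300 and 15.1 to 30.8 in Control. Of the 20 listed genes 15, 8 and 8 had at most 12 counts in Control replicates 1 to 3, and 3, 4 and 3 in the A300 tumors.

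Schwann cell genes are the markers of peripheral myelin. Of 10 that passed the filter 1 had A300 above Control without overlap and 1 the reverse, beside 14.5% and 15.4% of all genes. The median log2 difference was -0.02, and none had its lowest value in Control replicate 1. The summed level overlapped between all groups (98.1 to 133 CPM in A300, 104 to 128 in Control). Pmp22, a peripheral myelin protein that fibroblasts also make, was at 91.8 CPM in A300 and 86.9 in Control, Prx at 7.63 and 9.02, and Egr2 at 5.79 and 7.29.

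Of 24 other astrocyte genes, 10 had A300 above Control without overlap and 1 the reverse, beside 14.5% and 15.4% of all genes, with a median log2 difference of 0.56. Its abundant members are made by many cells. The gap junction gene Gja1 was at 299.6 CPM in A300 and 349.5 in Control, Ndrg2 at 113.5 and 98.7, glutamine synthetase (Glul) at 102.1 and 90.2, and Sox9 at 89.1 and 69.8. The summed level of the list, carried by these genes, was 745 to 885 CPM in A300 and 662 to 874 in Control.

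Neuron genes were read in the same way. Of 16, 11 had A300 above Control without overlap, beside 14.5% of all genes (median log2 difference 1.19), and 5 had every A300 tumor above all 9 others, beside 2.08%. Their lowest value was in Control replicate 1 for 12 of the 16, beside 10% of all genes. Snap25, a synaptic gene taken here as the defining marker, was at 0 in Control replicate 1 and at 302 to 966 counts in every other tumor. The ratio of Snap25 to Mobp counts lay between 1.26 and 2.27 in the 11 tumors that had both, and that of Slc1a2 to Mobp counts between 0.89 and 1.58. The ratios to Mobp of the genes with fewer counts were more spread, at 0.13 to 0.62 for Gfap, 0.038 to 0.16 for Mog and 0.049 to 0.20 for Aqp4. Gap43 was at 60.1 CPM in A300 and 37.6 in Control, Nefl at 22.6 and 19.4, and Dlg4 at 63.7 and 61.3. Tubb3, a neuronal tubulin that tumor cells can also make, differed from the rest: it was called higher in ASC (log2 difference 1.42, SE 0.19, adjusted p = 0.00245) and in ASC300 (1.53, SE 0.19, adjusted p = 0.00137) against Control in the edgeR fit. Summed neuron genes came to 242 to 324 CPM in A300, 215 to 290 in ASC, 232 to 286 in ASC300 and 160 to 204 in Control. The most abundant were Dlg4, Tubb3 and Gap43, at 58.3, 56.1 and 51.5 CPM over the 12 tumors. Tubb3 alone had means of 41.7 CPM in A300, 74.5 in ASC, 80.4 in ASC300 and 27.9 in Control. The part of neuron transcripts in the values of the 9 genes was not tested.

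Among microglia genes 0 of 8 had A300 above Control without overlap, with a median of 0.06 and summed levels of 223 to 311 CPM in A300 and 232 to 281 in Control. Fcrls, Olfml3 and Cx3cr1, abundant members of the list, are also made by other macrophages. Without Control replicate 1, the counts of genes with A300 above Control were 9 for oligodendrocyte, 11 for astrocyte, 11 for neuron, 1 for Schwann cell and 0 for microglia genes, beside 19.6% of all genes.

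**Figure D4:**
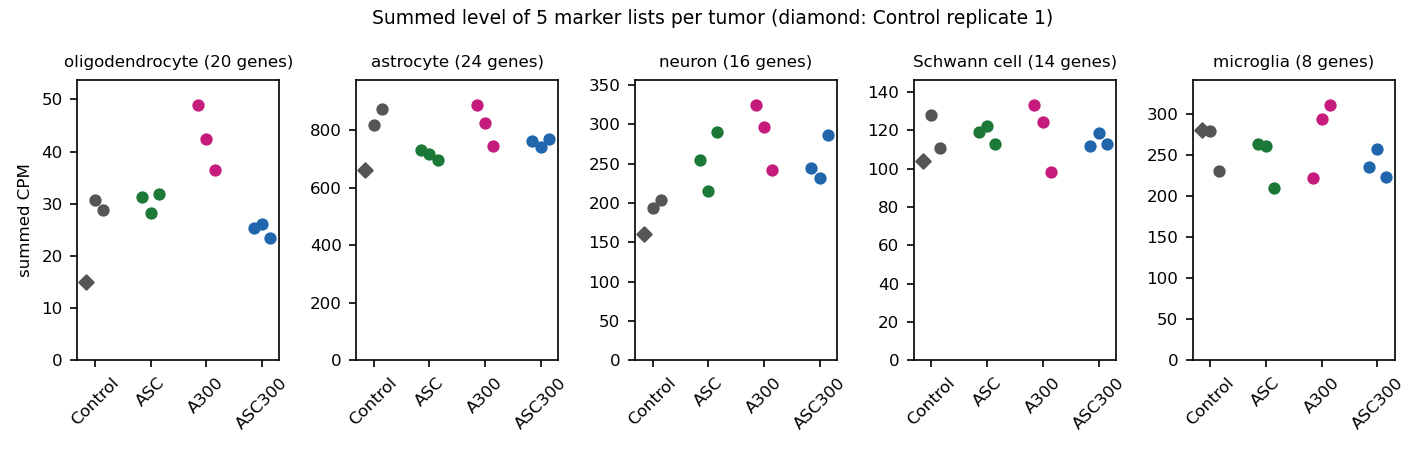
Summed level in CPM (vertical axes from 0) of all genes in each of 5 marker lists in every tumor, with a diamond for Control replicate 1. The oligodendrocyte sums of A300 (36.4 to 48.8 CPM) lie above all other tumors and that of Control replicate 1 is lowest (15.1 CPM), while the Schwann cell and microglia sums overlap between groups.

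None of the oligodendrocyte, Schwann cell, astrocyte or microglia genes was called by edgeR in ASC, or in ASC300, against Control, or in ASC300 against ASC. The list medians in ASC300 against ASC were -0.60 for oligodendrocyte, -0.33 for astrocyte and -0.19 for neuron genes, where that of all genes was -0.006. Their sign was opposite to that in A300 against Control. Higher in ASC300 were 2 of 16 oligodendrocyte, 7 of 24 astrocyte and 4 of 16 neuron genes. The summed oligodendrocyte level was 23.4 to 26.1 CPM in ASC300 and 28.2 to 31.8 in ASC, without overlap. These list differences were not tested. Skeletal muscle genes, a measure of adjoining tissue, summed to 2.89 to 2009 CPM among Control tumors and to 5.54 to 2006 among A300 tumors. Of 10 such genes 0 had A300 above Control without overlap, beside 14.5% of all genes. The sum of 2.89 CPM was that of Control replicate 1. The lowest value lay in that library for 7 of 10 muscle, 9 of 16 oligodendrocyte and 8 of 24 astrocyte genes, beside 10% of all genes.

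Gfap belongs to the intermediate filaments and Aldoc to the glycolytic enzymes, so their relatives were read as well. Of 6 other filament genes 3 had A300 above Control without overlap, beside 14.5% of all genes (median 0.49), and vimentin (Vim), the filament of mesenchymal cells, was at 2915 CPM in A300, 3031 in ASC, 3054 in ASC300 and 2355 in Control. Nes was at 286 and 294 CPM in A300 and Control, and Prph at 7.62 and 4.79. Des had means of 53.2 and 21.8 CPM, each carried by 1 tumor. Its counts were 6046, 343 and 80 in A300 and 290, 2894 and 178 in Control, and the groups overlapped. Of 18 hypoxia and glycolysis genes 6 had A300 above Control without overlap and 1 below, beside 14.5% and 15.4% of all genes (median 0.10), and none was called by edgeR in a tested comparison. Aldoa, the aldolase of muscle and most other tissues, was at 1379 CPM in A300, 1175 in ASC300, 1091 in ASC and 1053 in Control, while Eno1 was at 1703, 1710, 1515 and 1414, Ldha at 1275, 1243, 1073 and 1097, and Pgk1 at 1314, 1368, 1229 and 1235. The order of the group means of Aldoa was that of Aldoc.

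The genes most like Mbp across the 12 tumors by Pearson correlation of log2 CPM were Mmp17 (r = 0.948), Hcfc1r1 (0.940) and Spock2 (0.939). For Aldoc they were Mfsd13a (0.919), Vps37b (0.919) and Tmcc2 (0.916), and for Gfap Bex2 (0.980), Cacng2 (0.975) and Sult4a1 (0.970). Without Control replicate 1 these correlations were 0.921 to 0.932 for Mbp, 0.869 to 0.875 for Aldoc and 0.864 to 0.914 for Gfap. They are descriptions over tumors that share their groups and were selected as the highest among 20818 genes.

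Some counts may hold reads of a neighbouring gene. In the GENCODE M21 annotation 79 exonic bases of Mobp overlap Gm38642 on the same strand, 154 of Cnp overlap Dnajc7 on the opposite strand, and 189 of Slc1a2 overlap the antisense gene Gm13872. The library kit keeps strand, but whether the counting used it is not given in the sources used here. Exons of the other 6 genes overlapped no other annotated exon.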

How the data were processed

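RNA of 12 tumors (3 per group) was sequenced from stranded poly(A) libraries with paired-end reads. The authors deposited whole-number counts per Ensembl gene without normalization. The submitters' processing notes name cutadapt 1.1.0, HISAT2 2.0, StringTie 1.3.4, DESeq2 and edgeR. The step that made the counts, the genome build and the annotation are not given in the sources used here. Among low counts, 4 was more frequent than 3 (1137 to 1298 genes at 4 counts per tumor, 618 to 795 at 3). Higher multiples of 4 are not given here. The floor was set at 12 counts on the assumption of 4 counts per read pair.

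Symbols and exon lengths came from GENCODE M21, promoters from RefSeq. The software was edgeR 4.0.16, DESeq2 1.42.0 and limma 3.58.1 under R 4.3.3. After filterByExpr by group and TMM scaling, a quasi-likelihood model was fitted with 1 mean per group over all 12 tumors (common dispersion 0.108). A call needed a Benjamini-Hochberg adjusted p under 0.05 over 20818 genes and at least 1.5-fold. CPM uses the TMM-scaled library size. The procedure was also run on simulated data, with large changes and a lower dispersion than the 0.108 fitted here. That run does not show what the test can detect in these genes.

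The 9 genes and the marker lists were chosen with earlier results of these data known. Named genes were all 9, the 4 most abundant of each list, every listed gene called in a tested comparison, and the 3 genes most correlated with Mbp, Aldoc and Gfap. Some genes that this rule names are not reported here. Snap25, Nkx2-2, Pbsn and Epcam were added as defining markers after their values were seen. The stromal and epithelial lists were read because of the cell type label, through the levels given above. Comparing A300 with Control cannot check that label, since all libraries share it. In that comparison 0 of 9 and 0 of 7 genes had A300 above Control without overlap (medians -0.12 and -0.59), beside 14.5% of all genes. Krt8 was called lower in ASC300 against Control by edgeR (log2 difference -2.51, SE 0.49, adjusted p = 0.0309). Control replicate 1 had 16302 Krt8 counts, against 3238 and 4144 in the other Control tumors. The value without that library is not reported here. As alternatives, the DESeq2 test, its size factors within edgeR, no filter, at least 10 counts in every tumor, only the 6 tumors compared, the replicate number as a block, and leaving out each tumor were run.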

Additional observations from a re-analysis of the deposited data

How the results depend on the processing

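Over the 9 genes and 3 tested comparisons, 455 alternative values kept the direction and the side of the threshold, and 1 passed it: with DESeq2 1 gene was called in ASC300 against Control (Aldoc, adjusted p = 0.0475), a change whose cause was not tested. The other 18 were changes of sign, all on leaving out 1 tumor and none of a called value. Among the 455 were DESeq2 values without an adjusted p-value, which counted as not called. These were Mog and Aqp4 in ASC against Control and Mog in ASC300 against Control. Runs that left out a tumor of neither group compared were counted too. By comparison, leaving out 1 tumor gave log2 differences in ASC300 against ASC of -0.88 to 0.29 for Mog, -0.71 to 0.29 for Aqp4, -0.041 to 0.20 for Mag, -0.086 to 0.0055 for Cnp, -0.27 to 0.16 for Slc1a2 and -0.77 to 0.015 for Gfap. In ASC300 against Control they were -0.65 to 0.65 for Mog, -0.16 to 0.99 for Aqp4 and -0.012 to 0.37 for Mbp, and in ASC against Control -0.36 to 0.72 for Mog and -0.022 to 1.13 for Aqp4. Genes called over the whole table were more sensitive: DESeq2 called 450 in ASC and 389 in ASC300 against Control and 10 in ASC300 against ASC, where edgeR called 150, 168 and 0, and the cause was not tested. With only the 6 tumors compared there were 89 in ASC against Control, 219 in ASC300 against Control and 1 in ASC300 against ASC, and the cause was not tested. Leaving out 1 tumor gave 105 (without Control replicate 3) to 355 (without ASC replicate 1) in ASC against Control, 90 (without ASC300 replicate 3) to 203 (without Control replicate 1) in ASC300 against Control, where leaving out ASC300 replicate 2, Control replicate 2 or Control replicate 3 gave 109, 103 and 110, and 0 to 1 in ASC300 against ASC (1 without ASC300 replicate 3, ASC replicate 2 or ASC replicate 3). The A300 values kept their sign under every alternative run. The filter of at least 10 counts in every tumor removed Mog, Mobp, Gfap and Aqp4, which were at 0 in Control replicate 1. Tumors with the same replicate number did not deviate together (18 pairs, r from -0.124 to 0.172, 3 of 12 tumors closest to their own number), so the numbers do not pair them. The replicate block gave 148, 155 and 0 genes called, and 0 of the 9, and the A300 log2 values of Mog, Gfap and Aqp4 became 1.81, 3.26 and 2.12. Depth limits Mog and Aqp4, with at most 50 and 79 counts in a tumor, and intervals cover 3 tumors a group.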
